A study of Mus musculus with 3 samples.

Results

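The matrix metalloproteinases (MMPs), aggrecanases of the ADAMTS family and their tissue inhibitors (TIMPs) were examined in a mouse preosteoblast line, MC3T3-E1. The 10 genes were Mmp2, Mmp3, Mmp13, Mmp14, Adamts1, Adamts4, Adamts5, Timp1, Timp2 and Timp3, taken by gene symbol from 18193 genes on the array. They were read by 25 of the 34945 probe sets that carry a single gene symbol. Per the labels, the line comes from calvaria of strain C57BL/6, grows without limit and looks fibroblast-like, and its age is entered as "new bone". All cultures were kept for 3 days at 37 °C in MEM α with 10% fetal bovine serum, which alone was the normal medium. Osteogenic medium added beta-glycerophosphate at 10 mM and ascorbic acid 2-phosphate at 150 µM, and the last condition added 0.6% dimethyl sulfoxide (DMSO) to osteogenic medium. Each condition was read on 1 Affymetrix mouse array, so there is no replicate, no test and no measure of the spread between cultures. The question set by the design was which genes go with the stronger mineral staining that the labels report for DMSO.

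MMPs are zinc enzymes that are made as inactive precursors and cut the proteins of the extracellular matrix, each with its own range of substrates. TIMPs bind the active site of these enzymes one to one, and the ADAMTS aggrecanases cut the large proteoglycans aggrecan and versican. In bone, collagenase made by cells of the osteoblast lineage opens the collagen matrix for remodelling.

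The deposited values are log2 signals, with array medians of 3.54 for normal medium, 3.58 for osteogenic medium and 3.54 for osteogenic medium with DMSO. Values given in a row of 3 follow this order of conditions. Values under 3.54, the 50th percentile of all values, were treated as not above background and raised to that floor. The RNA spikes added for hybridisation, read by 18 probe sets, had a median difference of 0.10 between osteogenic and normal medium and of -0.03 between osteogenic medium with and without DMSO. Of the 10 fixed osteoblast markers, Runx2, Bglap and Spp1 had no probe set with a single gene symbol and were not read. The other 7 were above the floor on every array. Their mean log2 signal was 9.63, 10.50 and 10.80, whose part in the members' differences was not tested. The macrophage and osteoclast markers Ptprc, Cd68, Adgre1, Acp5 and Calcr were under the floor on all 3 arrays, leaving Csf1r and Ctsk above it. Acan and Comp of the chondrocyte list, Adipoq, Fabp4 and Pparg of the adipocyte list and Pecam1, Cdh5 and Tek of the endothelial list were also under the floor on every array. The rest of the chondrocyte list was above it on every array, with Col2a1 at 7.16, 8.01 and 8.08, Sox9 at 7.52, 7.52 and 7.42, and Col9a1 at 4.68, 4.72 and 4.68. Cebpa of the adipocyte list was also above it, at 6.15, 6.15 and 6.06, and Kdr of the endothelial list was above it in normal medium alone. These lists had mean signals of 5.03 to 5.25, 3.22 to 3.24 and 2.39 to 2.51 over the arrays, and that of macrophages and osteoclasts 3.44 to 3.45.

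With DMSO, against either other medium, the collagenase Mmp13 and the inhibitor Timp3 had the lowest differences of the members. Mmp13 and Adamts5 were at least 2-fold lower on the array of osteogenic medium than on that of normal medium. On the array with DMSO, Mmp13 and Timp3 were at least 2-fold lower than in osteogenic medium. No member was 2-fold higher in any comparison. Of the 9 members above the floor, 2 fell in osteogenic against normal medium, where 0.184% of 11417 genes fell and 0.473% rose. With DMSO added to osteogenic medium 2 of 9 fell, where 0.552% of 11423 genes fell and 0.0525% rose. From normal medium to osteogenic medium with DMSO, a comparison that adds up both steps, Mmp13 and Timp3 had fallen, against 1.34% of 11422 genes fallen and 0.604% risen. At a limit of 1.5-fold, 3, 2 and 4 of 9 members were lower in these comparisons, against 1.61%, 2.12% and 4.19% of genes. The members added at that limit were Adamts1 in the first, and Adamts1 and Adamts5 in the last. The members had median differences of -0.32, -0.14 and -0.57 in the 3 comparisons, and all genes above the floor had medians of 0. The member that was not above the floor on any array was Mmp3. In these bulk samples, fewer cells that express a gene and less RNA per cell cannot be told apart.

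**Figure D1:**
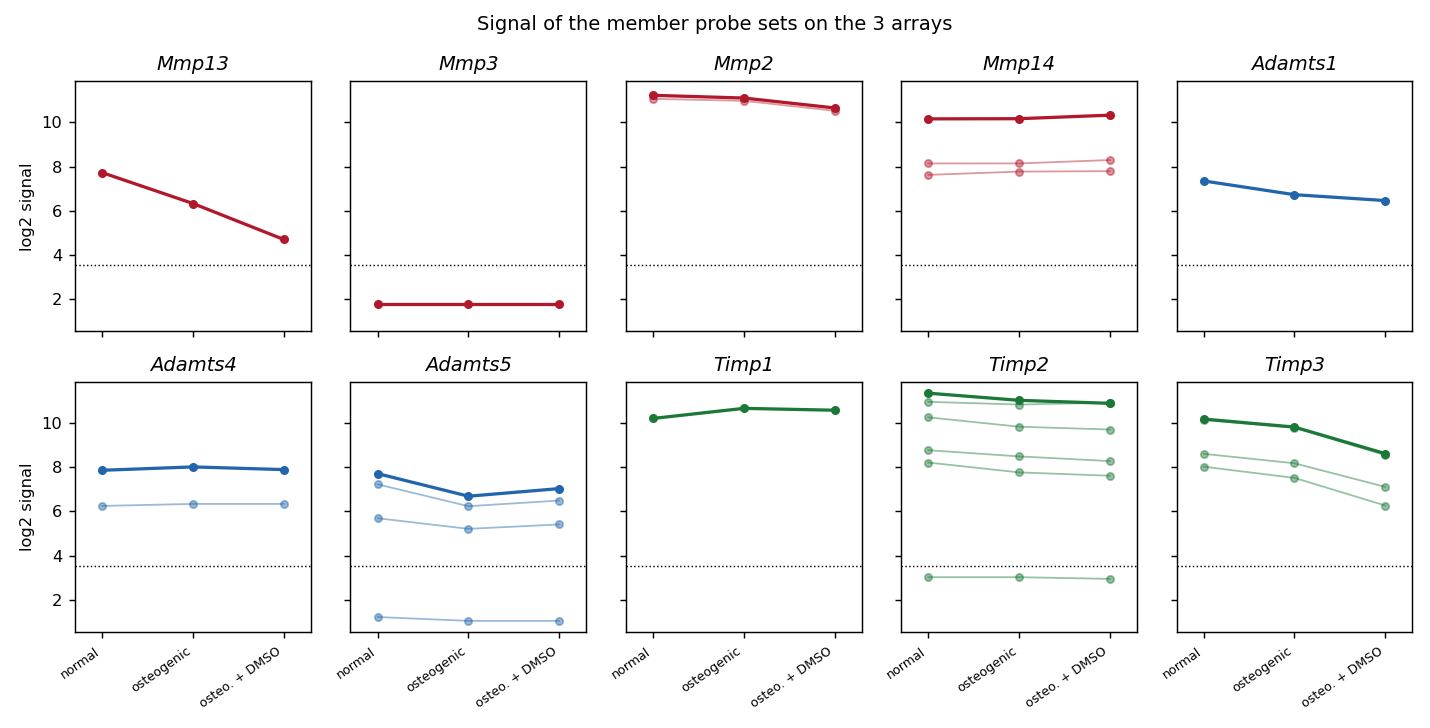
Log2 signal of the 25 member probe sets on the 3 arrays, one for each medium. Each line joins the values of 1 probe set, the bold line is the probe set with the highest mean, and the dotted line is the floor of 3.54. Mmp13 steps down from 7.72 to 6.32 to 4.69, and the 4 probe sets of Timp3 run in parallel, 2 of them nearly on top of each other.

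Mmp13 encodes the collagenase that cleaves the triple helix of fibrillar collagens, and is the main enzyme of that kind in rodent bone. Its signal was 7.72 in normal medium, 6.32 in osteogenic medium and 4.69 in osteogenic medium with DMSO. Each step was thus a fall, and the level with DMSO was still above the floor. Mmp13 fell by 1.40 on the log2 scale with osteogenic medium (2.64-fold lower), the 7th lowest difference among 11257 genes measured on both arrays. It fell by a further 1.63 with DMSO (3.10-fold lower), rank 13 of 11261. From normal medium to osteogenic medium with DMSO the difference was -3.03, or 8.16-fold lower, which was the lowest of the 11226 genes measured on both arrays. Of 11203 genes with all 3 values above the floor, it was the 1 gene that fell at least 2-fold in both steps. The steps share the array of osteogenic medium with opposite signs, so an error of that array would raise one difference and lower the other. Mmp13 has 1 probe set, so no other probe set gives a reading of these values.

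Mmp3 encodes stromelysin 1, which cuts proteoglycans and other matrix proteins and activates other MMP precursors. It was listed at 1.75 on all 3 arrays, under the floor, so only an upper bound on its level was obtained. In the GRCm38.p6 gene table, Mmp13 and Mmp3 belong to a run of 10 MMP genes on chromosome 9 that lie next to each other with no other coding gene between them. In the table's order these are Mmp13, Mmp12, Mmp1b, Mmp3, Mmp1a, Mmp10, Mmp8, Mmp27, Mmp20 and Mmp7. Of the 9 with a probe set, Mmp13 was the 1 gene above the floor, and the other 8 were listed between 1.38 and 3.18 with equal values on all arrays.

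The 250 bases before the start of Mmp13 and of Mmp3 are shown because the genes lie in the same run and only Mmp13 gave a measured signal. They are RefSeq sequences of build GRCm38.p6, written 5′ to 3′ on the strand of the gene, which is the plus strand for both. Mmp13 covers chr9:7272264-7272513 and Mmp3 covers chr9:7445572-7445821. Capitals mark matches to the AP-1 motif TGANTCA, the binding sequence of Fos and Jun dimers, and to the TATA box TATAAA.
Mmp13: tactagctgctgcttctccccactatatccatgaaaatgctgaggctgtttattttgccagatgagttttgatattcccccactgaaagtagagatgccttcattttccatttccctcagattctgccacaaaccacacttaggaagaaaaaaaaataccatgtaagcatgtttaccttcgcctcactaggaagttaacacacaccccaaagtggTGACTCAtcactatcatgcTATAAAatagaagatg
Mmp3: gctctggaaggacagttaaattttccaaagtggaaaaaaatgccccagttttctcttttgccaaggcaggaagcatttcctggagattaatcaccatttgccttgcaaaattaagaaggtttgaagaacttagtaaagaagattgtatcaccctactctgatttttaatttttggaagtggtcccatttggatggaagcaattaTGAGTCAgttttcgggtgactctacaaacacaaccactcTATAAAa
Both genes held 1 AP-1 match followed by 1 TATA match. The AP-1 match of Mmp13 began 35 bases before the start and that of Mmp3 began 46 bases before it.

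Mmp2 was lower with DMSO, and Mmp14 was slightly higher. Mmp2 encodes gelatinase A, which cuts denatured collagen and basement membrane collagen. The probe set of Mmp2 with the highest mean read 11.23, 11.11 and 10.66. Its other probe set read 11.07, 10.98 and 10.53. Both were lowest with DMSO, with a difference from osteogenic medium of -0.45 on each. The difference in osteogenic against normal medium was -0.12 and -0.09. Mmp14 encodes the membrane-bound enzyme that cuts collagen at the cell surface and activates the Mmp2 precursor. Its probe set with the highest mean read 10.16, 10.17 and 10.33, and the others read 8.14, 8.14 and 8.29, and 7.62, 7.77 and 7.79. Its difference with DMSO was 0.11 ± 0.08 (SD over 3 probe sets of the same arrays), all above 0. That is close to the scatter between probe sets of a gene, which had an SD of 0.11 in this comparison.

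Members of the ADAMTS family were lower in osteogenic medium for Adamts5 and Adamts1 and slightly higher for Adamts4. Adamts5, the main aggrecanase of mouse cartilage, read 7.71 in normal medium, 6.69 in osteogenic medium and 7.03 with DMSO. It was lowest in osteogenic medium without DMSO and regained a part of its signal with DMSO. Its fall with osteogenic medium was 1.02 (2.03-fold), just past the 2-fold limit, and the difference with DMSO was 0.34, higher than 98.2% of genes measured on both arrays. The other probe sets of Adamts5 above the floor showed the same order, with 7.23, 6.23 and 6.49 for one and 5.69, 5.21 and 5.41 for the other. Over these 3 probe sets the difference was -0.83 ± 0.30 (SD) with osteogenic medium, with 1 past 2-fold, and 0.27 ± 0.07 with DMSO. The remaining probe set was under the floor, and with the mean of all 4 the first difference was -0.67, under 2-fold.

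Adamts1, a protease that cuts versican and aggrecan, lies directly beside Adamts5 on chromosome 16 in the gene table. Its single probe set read 7.35, 6.72 and 6.46. It was therefore lowest with DMSO, where Adamts5 was not, by -0.27 against the 0.34 of Adamts5. Against normal medium its difference was -0.62 in osteogenic medium and -0.89 with DMSO, both under 2-fold. Adamts4, the other classic aggrecanase, read 7.86, 8.02 and 7.89 on its brighter probe set. On the dimmer one it read 6.25, 6.34 and 6.34, with exactly equal values in osteogenic medium with and without DMSO. These differences, at most 0.15 in size, were close to the scatter between probe sets of a gene, which had an SD of 0.13 in the first comparison and 0.11 in the second over 5180 genes. The proteoglycan that gives the aggrecanases their name, Acan, was listed at 2.67 on all arrays, under the floor. Vcan, which encodes versican, read 6.57, 7.35 and 6.92.

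The TIMPs differed among themselves. Timp3 encodes the inhibitor that stays bound to the matrix and blocks ADAMTS and ADAM enzymes as well as MMPs. It was read by 4 probe sets, all above the floor. The probe set with the highest mean read 10.19 in normal medium, 9.82 in osteogenic medium and 8.62 with DMSO. The others read 10.14, 9.80 and 8.55, then 8.61, 8.18 and 7.11, and finally 8.03, 7.52 and 6.27. All 4 were highest in normal medium and lowest with DMSO. With DMSO the difference was -1.19 ± 0.08 (SD over 4 probe sets), each past 2-fold, whereas with osteogenic medium it was -0.41 ± 0.07, with none past 2-fold. Of the 22 member probe sets above the floor, 5 fell with DMSO, these 4 and that of Mmp13, against 0.469% of 20266 probe sets. As 4 of the 5 read the same gene, this count repeats the calls of Timp3 and Mmp13 and adds no other member. The Timp3 probe sets share the arrays and the RNA, so this SD holds no spread between cultures.

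The 250 bases before the start of Timp3, at chr10:86300162-86300411 on the plus strand, are shown for contrast with Mmp13, as the other member that fell with DMSO. They hold neither TGANTCA nor TATAAA on either strand, so the sequence has no capitals.
Timp3: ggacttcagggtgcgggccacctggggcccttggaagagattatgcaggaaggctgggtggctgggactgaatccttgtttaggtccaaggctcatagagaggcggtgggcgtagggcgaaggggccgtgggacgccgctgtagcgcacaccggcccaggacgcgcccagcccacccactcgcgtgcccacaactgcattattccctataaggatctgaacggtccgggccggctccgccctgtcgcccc
Of these bases 65.6% are G or C, against 40.4% for Mmp13 and a median of 52.4% over all promoters in the table.

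Timp1, a secreted inhibitor of most soluble MMPs, read 10.21, 10.67 and 10.59. It was the member with the largest upward difference in osteogenic medium, 0.46 on the log2 scale or 1.37-fold, and 350th highest of 11257 genes. With DMSO its difference was -0.08. Timp2, which inhibits MMPs and also links the Mmp2 precursor to Mmp14 at the cell surface, read 11.36, 11.04 and 10.90 on its brightest probe set. Over the 5 probe sets of Timp2 above the floor the difference was -0.32 ± 0.13 with osteogenic medium, and all 5 were below 0. With DMSO it was -0.11 ± 0.11, with 4 below 0 and 1 at 0.08. The direction with DMSO therefore depended on the probe set. Thus Timp1 was higher with osteogenic medium where Timp2 and Timp3 were lower, and the size of the DMSO difference in Timp3 was not matched in the other TIMPs.

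**Figure D2:**
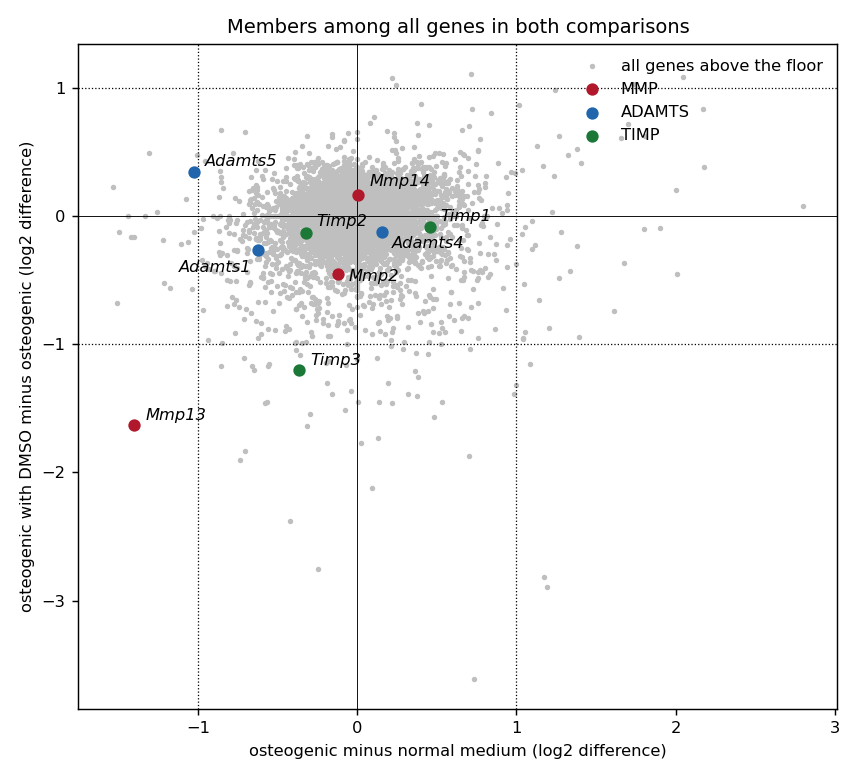
Log2 difference of osteogenic minus normal medium (horizontal) against that of osteogenic medium with DMSO minus osteogenic medium (vertical) for genes whose 3 values all exceed the floor. Each point is 1 gene, read by its brightest probe set on average, coloured points are members, and dotted lines mark 2-fold. Mmp13 lies alone in the lower left beyond both lines, Timp3 lies below the lower line, and Adamts5 lies just past the left line and above 0.

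For the members that fell 2-fold in a main comparison, the genes with the most similar pair of differences were sought among 10796 genes by Euclidean distance. Over 3 arrays this describes a pattern and no more. The nearest to Mmp13 were Aff3 at a distance of 0.71, Enpep at 0.72 and Id4 at 0.72, each with smaller differences in the first comparison. Enpep, an aminopeptidase, was lower by 0.74 with osteogenic medium and fell by 1.90 with DMSO. Timp3 had closer neighbours, which were Cpxm2 at 0.12, Rtl3 at 0.16 and Cbr2 at 0.18. Those of Adamts5 were Csad at 0.11, Tmem8b at 0.13 and Tsacc at 0.16.

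Other genes of matrix turnover stayed under 2-fold in each step, and 2 of them had fallen 2-fold over both steps together. None of the 7 other MMPs, 7 other ADAMTS genes, 8 ADAM genes, 3 other inhibitors, 7 genes of the plasminogen system and precursor activation, 14 matrix substrates and 2 clearance receptors with a value above the floor changed 2-fold with osteogenic medium or with DMSO added to it. From normal medium to osteogenic medium with DMSO, Adamts6 fell by 1.38 (2.61-fold) and Adam19 by 1.13 (2.19-fold), as Mmp13 and Timp3 did. Among the other MMPs, the gelatinase Mmp9 read 5.13, 4.76 and 4.98, and Mmp11 was at -0.45 with osteogenic medium. Mmp19 was at -0.61 with DMSO, and its other probe set was at least 2.40-fold lower, as it went under the floor. Adamts6 read 5.80, 5.41 and 4.42, a difference of -0.99 with DMSO, just under 2-fold. Adamts10 was at 0.28 and then -0.35. Of the ADAM genes, Adam19 was lower in both steps, at -0.69 and -0.44, and its other probe set at -0.71 and -0.40. Adam12 was higher by 0.50 with osteogenic medium, and Adam33 by 0.17 with DMSO.

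Reck, which encodes a membrane-anchored inhibitor of MMPs, read 7.67, 7.69 and 8.05 and was thus higher with DMSO by 0.37, opposite in direction to Timp3. Timp4 was at -0.19 with DMSO and the cathepsin inhibitor Cst3 at -0.13 with osteogenic medium. In the plasminogen and activator list, the urokinase receptor Plaur was at 0.47 and then -0.24, and the lysosomal protease Ctsl at -0.43 and then -0.47. Among substrates, Col2a1 and Vcan were higher with osteogenic medium, by 0.85 and 0.78, while Lum and Vcan were lower with DMSO, by -0.69 and -0.43. The abundant collagenase substrates Col1a1 and Col1a2 stood nearly still on their brightest probe sets. Col1a1 was at 0.04 and 0.18 and Col1a2 at 0.03 and 0.00. The other Col1a1 probe set was at 0.08 and -0.01. The second brightest probe set of Col1a2 was at 0.08 and 0.04, but its dimmest was at 0.49 and -0.45. The brightest Col1a2 probe set lay close to the top of the range of all signals. Whether differences are reduced there was not tested. The uptake receptor Lrp1 was at -0.15 and -0.46 and the collagen receptor Mrc2 at -0.26 and -0.14. The other Lrp1 probe set was above the floor in osteogenic medium alone, at least 0.31 higher there than on either other array. The direction of Lrp1 with osteogenic medium therefore depended on the probe set. The median differences of these lists ran from -0.20 to 0 with osteogenic medium and from -0.30 to 0.02 with DMSO, and all genes above the floor had a median of 0.

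**Figure D3:**
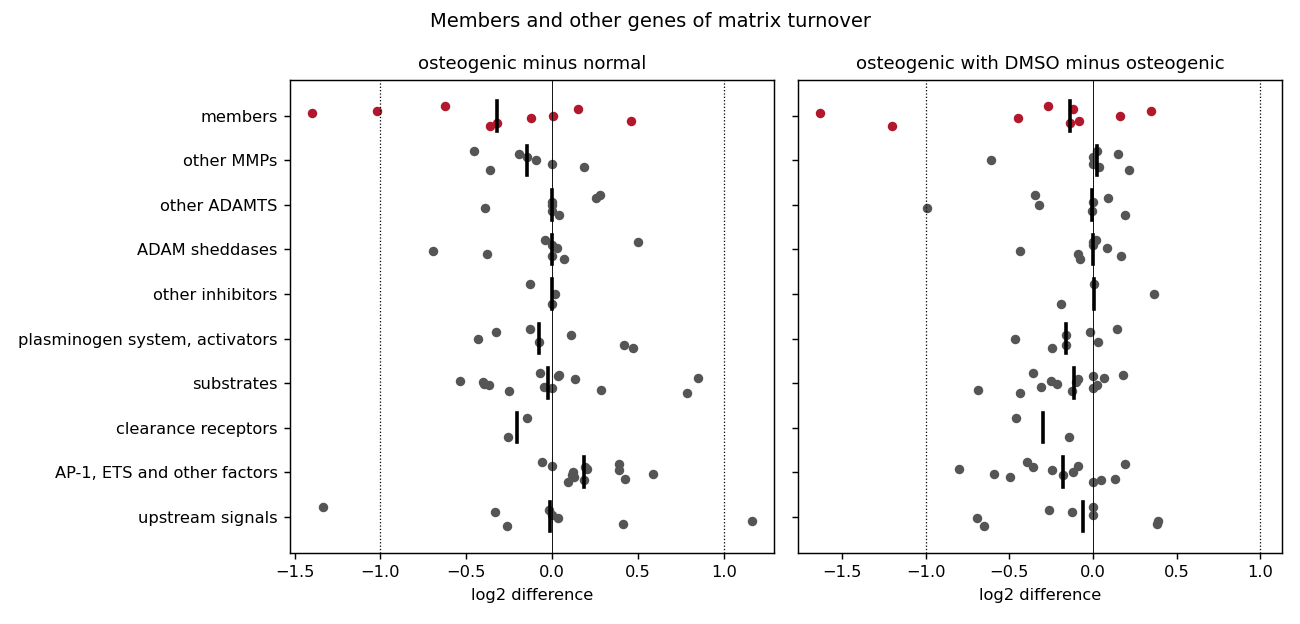
Log2 differences of the members (red) and of other genes of matrix turnover (grey) above the floor, for osteogenic minus normal medium on the left and osteogenic medium with DMSO minus osteogenic medium on the right. Each point is 1 gene, black bars are medians and dotted lines mark 2-fold. Mmp13 and Adamts5 on the left and Mmp13 and Timp3 on the right are the points of protease and inhibitor lists beyond the lines, and 2 upstream signals lie beyond them on the left.

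The measured factors among those known to act on MMP genes mostly stood on the other side of 0 from Mmp13 in the first comparison. Of 12 factors of the AP-1, ETS, C/EBP and NF-kB families measured on both arrays, 10 were above 0 with osteogenic medium and 1 below. The median of the 12 was 0.19. Of all genes measured on both arrays, 36.1% were above 0 and 38.7% below 0, and the rest had exactly equal values. The hybridisation spikes had a median of 0.10 in that comparison, and their part in these small differences was not tested. With DMSO 8 of the 12 factors were below 0 and 3 above, with a median of -0.21. Of all genes measured on both arrays, 29.9% were below 0 and 40.5% above, and the rest were equal. None reached 2-fold in either comparison. Fosb is not in these counts, as it was above the floor in osteogenic medium alone. Runx2 and Nfkb1, also on the list, had no probe set with a single gene symbol and were not read. Fosl1, an AP-1 subunit, read 4.38, 4.97 and 4.38, Junb was at 0.43 with osteogenic medium, and the ETS factor Etv5 was at -0.80 with DMSO while its other measured probe set was at -0.26. Of 8 measured upstream signals, 1 rose and 1 fell with osteogenic medium, and none changed 2-fold with DMSO. Pth1r, the receptor for parathyroid hormone, rose by 1.17 and the growth factor Fgf18 fell by 1.33, and from normal medium to osteogenic medium with DMSO they stood at 1.56 and -1.33. Osmr, the oncostatin M receptor, and Tgfb2 were at -0.69 and -0.65 with DMSO. The other measured probe set of Osmr was at -0.15, and those of Tgfb2 were at -0.53, -0.60 and -0.69. The inflammatory inducers Il1a, Il1b, Il6 and Tnf were under the floor on all arrays.

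The 7 members with a promoter in the RefSeq table were searched over 250 bases on both strands for 4 motifs, the AP-1 motif, the TATA box, the GC box GGGCGG and the ETS core AGGAAG. AP-1 matches were found in 2 of 7, Mmp13 and Mmp3, and 6.75% of 32851 promoters of the same length held one. TATA matches were found in 3 of 7, those genes and Adamts1, and 12.4% of promoters held one. The GC box was found in Mmp14, Adamts1, Timp1, Timp2 and Timp3, and the ETS core in Mmp13, Mmp3, Mmp14, Timp1 and Timp3, against 32.7% and 29.5% of promoters. None of the motif matches found in the members overlapped another motif's match. A match is a run of letters and shows no binding.

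**Figure D4:**
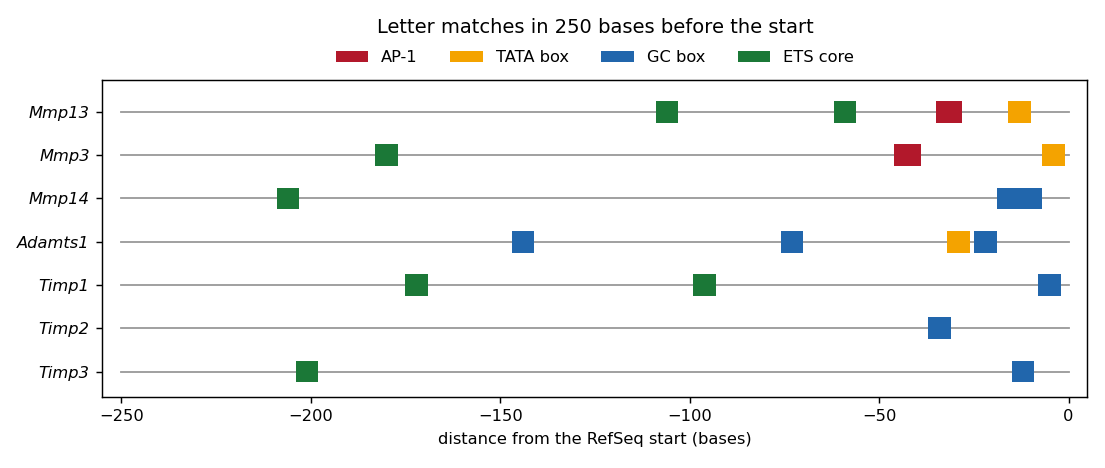
Positions of the letter matches in the 250 bases before the RefSeq start of 7 members, with the distance from the start in bases on the horizontal axis and a line for each gene. Coloured blocks are matches to the AP-1 motif, TATA box, GC box and ETS core on either strand. Mmp13 and Mmp3 are the lines with an AP-1 block, each followed by a TATA block.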

How the data were processed

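The authors deposited 1 log2 signal per probe set and array, for 45101 probe sets of an Affymetrix GeneChip mouse genome array. The log2 unit is read from the range of 0.652 to 13.4, and how the signals were summarised and normalized is not given in the sources used here. Per the labels, cRNA was made from 500 ng of total RNA with a 3′ IVT kit, from samples with an RNA integrity number above 9.5. Symbols came from the platform annotation of 2016, and probe sets with several symbols or none (932 and 9160) were left out. Where a gene had several probe sets, the one with the highest mean stood for it. Differences are between 2 arrays, and a gene was called at 2-fold. Where 1 array was under the floor, the change is written as "at least". With 1 array per condition no test was run, and precision is limited by the number of arrays.

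The named genes were all members, list genes past 2-fold, otherwise the 2 largest differences of each list and comparison, and the 3 nearest patterns. A few others (Acan, Col1a1, Col1a2, Fosb, Il1a, Il1b, Il6, Tnf and the chromosome 9 MMP genes) were added after their values were seen. Syn1 and Syn3 are outside the lists and are named because they overlap members. The members and lists were chosen with earlier results of these data known. Alternatives covered the probe set, floor, scaling and fold limit. The calling code was run on simulated data whose planted differences lay well away from the 2-fold limit. That run checks the code, and does not bear on calls near the limit or on the spread between cultures. Tools were Python 3.11.15, numpy 2.4.6, pandas 2.3.3, matplotlib 3.10.9, R 4.3.3 and limma 3.58.1.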

Additional observations from a re-analysis of the deposited data

How the results depend on the processing

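The count of members fallen 2-fold in osteogenic against normal medium was 2, became 1 with the mean of all probe sets of a gene and 0 with the probe set of the second highest mean. With that second probe set the count was 1 instead of 2 both with DMSO within osteogenic medium and with DMSO against normal medium. Mmp13, Adamts1, Timp1 and Mmp3 have no second probe set, so fewer genes were counted there. A limit of 1.5-fold gave 4 members instead of 2 in the last comparison, Adamts1 and Adamts5 besides Mmp13 and Timp3, against 4.19% of genes. The other floors, no floor, quantile normalization, cyclic loess and median centring left each of these counts equal, and no alternative gave a member risen 2-fold. Of 207 values of single members under the alternatives, 200 moved by less than the SD between paired probe sets and 7 by more. None of the called values changed sign. Many of the 207 could not move, as these members lay above every floor tried and a single probe set is its own mean. The 7 that moved all came from the choice of probe set, in Adamts4, Adamts5 and Timp2. Timp2 with DMSO ranged from -0.16 to 0.08. No paired analysis was possible because each condition has 1 array. Depth has no equivalent here, and Mmp3 is limited by its signal under the floor.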

Other observations

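The value of 1.75 at which Mmp3 is listed was shared exactly by 1724 probe sets in normal medium, 1833 in osteogenic medium and 1839 with DMSO, so equal values of genes under the floor carry no order. Between osteogenic and normal medium 46.8% of probe sets had exactly equal values, and 50.7% did between osteogenic medium with and without DMSO.

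Timp1 and Timp3 overlap the synapsin genes Syn1 and Syn3 in the gene table. Syn3 was listed at 2.85 on all arrays, under the floor, where Timp3 went from 10.19 to 8.62. Syn1 was at 3.97 on all arrays, where Timp1 went from 10.21 to 10.67.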
